A study of Bos taurus with 6 samples.

Results

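The miR-17-92 and miR-106b-25 clusters were followed in intramuscular fat (IMF) of steers and bulls. Their members were the rows of the miRNA count table named bta-miR-17, miR-18a, miR-19a, miR-19b, miR-20a, miR-92a, miR-106b, miR-93 or miR-25, with or without an arm suffix. This gave 10 rows, since both arms of miR-17 are listed, of 793 known bovine miRNAs and 8800 sequences in all. The animals were male Qinchuan cattle, weaned at 3 months and sampled at 24 months of age, and they were sons of 1 sire. The steers were surgically castrated at 6 months, and the bulls were left intact, with the same diet in both groups. IMF was dissected from the sternomandibularis muscle. Small RNA was sequenced in 2 libraries per group and mRNA in 1 library per group. By the study's design each was made from pooled animals, with 3 behind each small RNA library and 6 behind each mRNA library. The sample descriptions instead give 1 and 3.

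Both clusters are polycistronic, meaning that several miRNAs are cut from 1 primary transcript. miR-17-92 lies in a noncoding host gene, and miR-106b-25 lies in an intron of MCM7, a subunit of the helicase that opens DNA for replication. A miRNA recognises its target mRNAs mainly through its seed, the bases 2 to 8 from the 5′ end. The clusters are known for promoting cell cycle entry, MYC and E2F factors activate their transcription, and miR-17-92 has been tied to adipocyte differentiation through repression of RBL2.

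The 10 mature sequences fall into 5 seed groups. They are shown because miR-106b and miR-20a, the members lowest in steers against bulls by point estimate, share 1 of these seeds. miR-93 has the same seed but differed less than miR-18a, which has another. The sequences come from the study's supplementary sequence table and are written 5′ to 3′ with the seed in capitals. The first 4 carry the seed AAAGTGC, here called the miR-17 seed.
miR-17-5p: cAAAGTGCttacagtgcaggtagt
miR-20a: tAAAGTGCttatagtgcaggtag
miR-106b: tAAAGTGCtgacagtgcagat
miR-93: cAAAGTGCtgttcgtgcaggta
The seed of miR-18a differs from this one by a single base inside it, and the miR-19 pair has a seed of its own.
miR-18a: tAAGGTGCatctagtgcagata
miR-19a: tGTGCAAAtctatgcaaaactga
miR-19b: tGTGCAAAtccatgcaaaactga
miR-92a of the first cluster and miR-25 of the second share the seed ATTGCAC, here called the miR-25/92 seed.
miR-92a: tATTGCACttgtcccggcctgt
miR-25: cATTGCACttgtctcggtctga
The opposite arm of the miR-17 hairpin stands alone.
miR-17-3p: aCTGCAGTgaaggcacttgt
Each cluster therefore holds members of both the miR-17 seed and the miR-25/92 seed.

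Outside the seed the members are close to each other. miR-17-5p and miR-20a differ by C1T and C12T over 23 bases, counted from 1 at the 5′ end with the base of the first-named miRNA first. miR-17-5p and miR-106b differ by C1T, T10G and G20A over 21 bases. miR-19a and miR-19b differ by T11C alone. The relatives outside the clusters can be as close, since miR-17-5p differs from miR-106a by C1A alone and from miR-20b by T10C alone. miR-19b and miR-92a are each encoded by 2 precursors, and on the RefSeq bovine annotation the second copy of each lies away from the miR-17-92 cluster, so their counts cannot be assigned to that cluster alone. How reads matching several miRNAs were counted is not given in the sources used here.

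The small RNA libraries held 10452582 and 8859844 counts in steers against 7784227 and 6556511 in bulls. Of these, miR-143 and miR-10b together took 45.8% and 33.8% in steers against 25.8% and 19.3% in bulls. For comparison between libraries, counts were converted to CPM (counts scaled to a common library size) with TMM factors, which ranged from 0.746 to 1.42, and a count of 3 corresponded to 0.287 to 0.458 CPM before these factors. Log2 fold changes (LFC) are steers against bulls, so a negative value means lower in steers. Calls required edgeR's quasi-likelihood test to give an adjusted p under 0.05, and an absolute LFC over 1. The small RNA libraries are separate pools by the study's design but single animals by the sample descriptions. The p-values refer to the spread between these libraries, whichever they are. That spread was estimated with information shared over all sequences tested, so a p does not rest on a miRNA's own values alone.

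The clusters were present at low to moderate levels. Members took 0.0511% and 0.0469% of all counts in steers against 0.0988% and 0.0898% in bulls. In TMM CPM the members summed to 684.9 and 485.6 in steers and to 1017 and 631.0 in bulls, so that one bulls library lay below the higher steers library. miR-93 was the most abundant member and miR-19b the next in all 4 libraries, and miR-93 ranked 88 among the known bovine miRNAs by mean level. miR-17-5p, miR-106b and miR-92a held places 3 to 5 and changed order between libraries. miR-106b was at place 5 in both steers libraries and at place 3 in both bulls libraries. miR-20a and miR-25 exchanged places 6 and 7, and miR-17-3p, miR-18a and miR-19a were last in every library. miR-19a had 1 and 0 counts in steers against 1 and 0 in bulls. It was left out by the filter on low counts, while the other 9 members passed.

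**Figure D1:**
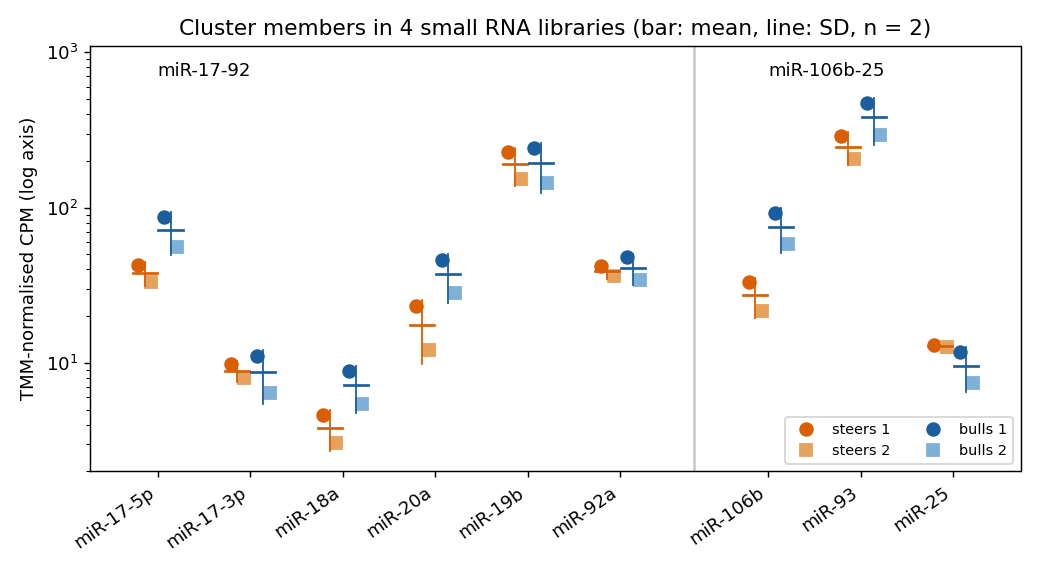
TMM-normalised CPM of the 9 members that passed the filter (log axis) in each small RNA library, with horizontal bars for the group means and vertical lines for the SD (n = 2). miR-106b, miR-17-5p and miR-20a have both steers libraries below both bulls libraries, while those of miR-19b and miR-92a overlap.

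miR-106b was downregulated in steers and was the only member called. The members of the miR-17 seed were all lower in steers by point estimate, whereas miR-19b, miR-92a and miR-17-3p were near 0 and miR-25 was above 0. Of the 9 members tested, 1 was called downregulated, where 7.08% of all 1073 sequences tested were called so. None was called upregulated by edgeR, against a background of 7.08%, and 0 had an unadjusted p under 0.05 in that direction. DESeq2 and limma-voom, on the same libraries, also called 1 downregulated and 0 upregulated. Over all sequences, DESeq2 called 54 downregulated and 71 upregulated, and limma-voom called 54 and 58. The median LFC over the 9 members was -0.62, against -0.07 over all sequences tested and -0.15 over the known bovine miRNAs tested. Both steers libraries lay below both bulls libraries for 5 members and above for 1, where 31.5% of all sequences tested had steers below bulls and 26.7% had steers above bulls. With CPM from total counts this count was 8 of 9, and the background was then 45.7%.

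The scaling bears on these directions. With total counts the median over all sequences tested moved by -0.49, to -0.56, and all 9 members were below 0. Relative to that median, miR-106b was at -1.35 and miR-25 at 0.56. In the TMM fit the corresponding values relative to the median of all sequences were -1.38 and 0.50. Between 5 and 6 of the 9 members lay below the median of all sequences under each of the 5 scalings compared.

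miR-106b had 257 and 186 counts in steers against 695 and 540 in bulls, or 32.98 and 21.72 against 91.93 and 57.89 TMM CPM. All steers values were below all bulls values, and the group means were 27.35 ± 7.96 and 74.91 ± 24.1 CPM (SD, n = 2). The LFC was -1.45 (SE 0.47, edgeR adjusted p = 0.0196). The call was lost in edgeR without steers library 1 (LFC -1.74, adjusted p = 0.233), without steers library 2 (-1.15, adjusted p = 0.731) and without bulls library 1 (-0.89, adjusted p = 0.283). It held without bulls library 2 (-1.78, edgeR adjusted p = 0.00523). Each of these fits leaves 1 library in a group, which is assumed to vary like the other group. The p-values then rest on the spread within that other group, estimated with information shared over all sequences tested. It was also lost with total counts (-1.91, edgeR adjusted p = 0.072) and without the filter on low counts (-1.54, edgeR adjusted p = 0.123).

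miR-20a, which shares the seed of miR-106b but belongs to the miR-17-92 transcript, had 23.1 and 12.14 CPM in steers against 46.3 and 27.98 in bulls. The groups did not overlap, and the LFC was -1.08 (SE 0.49, edgeR adjusted p = 0.127). miR-17-5p, the first miRNA of that transcript, had 42.73 and 33.05 CPM in steers against 86.77 and 55.64 in bulls. Its groups did not overlap either, and its LFC was -0.91 (SE 0.46, edgeR adjusted p = 0.179). Neither passed the adjusted threshold, although both had unadjusted edgeR p values under 0.05, at 0.0285 and 0.0487. Such values were common, with 3 of the 9 members and 293 of all 1073 sequences tested under 0.05. In a fit of the known bovine miRNAs alone, the edgeR adjusted p was 0.0437 for miR-17-5p (LFC -0.76, not past the fold threshold) and 0.0634 for miR-20a (LFC -0.94). Other settings gave other values. For miR-17-5p the adjusted p was 0.205 with DESeq2, 0.242 with limma-voom and 0.79 in edgeR without the filter on low counts. For miR-20a these values were 0.18, 0.14 and 0.578. With replicate number as a block, the edgeR adjusted p was 0.0574 for miR-17-5p and 0.026 for miR-20a.

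miR-93, the neighbour of miR-106b in MCM7, had 2251 and 1764 counts in steers against 3561 and 2722 in bulls, with mean levels of 247.4 ± 58.6 and 381.4 ± 126.7 CPM (SD, n = 2). The lower bulls library, at 291.8 CPM, was only just above the higher steers library, at 288.9 CPM. Its LFC was -0.62 (SE 0.50, edgeR adjusted p = 0.418). As the most abundant member, miR-93 set most of the sum of the miR-17 seed, which was 387.7 and 272.9 CPM in steers and 696.0 and 433.3 in bulls. The median LFC of these 4 members was -0.99.

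The make-up of the miR-17 seed members also differed between the libraries. miR-93 supplied 74.5% and 75.5% of their counts in steers against 67.7% and 67.3% in bulls. The 95% exact binomial intervals, which cover counting error only, were 72.9 to 76.1% and 73.7 to 77.2% in steers and 66.4 to 68.9% and 65.9 to 68.8% in bulls. miR-106b supplied 8.51% and 7.96% in steers and 13.2% and 13.4% in bulls. miR-17-5p took a similar share in all 4 libraries, between 11.0% and 12.8%, and miR-20a between 4.45% and 6.65%.

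**Figure D2:**
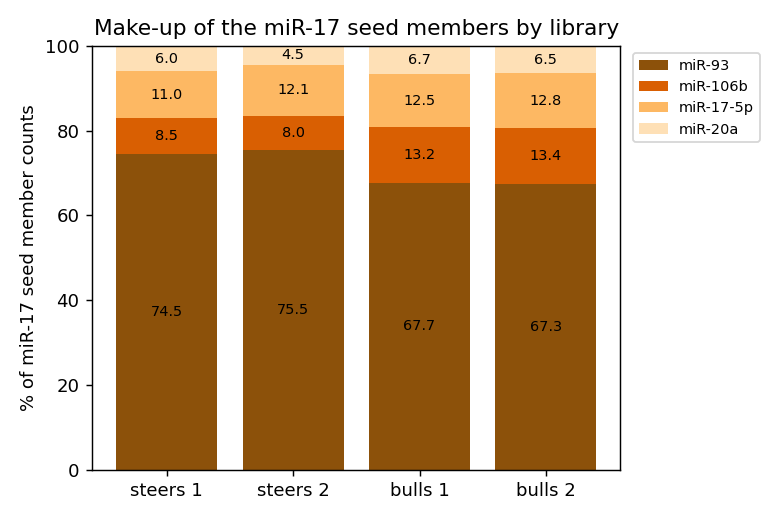
Share of each miRNA (%) in the summed counts of the 4 members with the miR-17 seed, 1 stacked bar per small RNA library. The share of miR-106b is 8.5 and 8.0% in steers and 13.2 and 13.4% in bulls, and that of miR-93 is larger in both steers libraries.

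miR-18a, whose seed is 1 base away, was the scarcest member tested, with 36 and 26 counts in steers against 67 and 51 in bulls. This was 4.62 and 3.04 CPM against 8.86 and 5.47 CPM, with no overlap. The LFC was -0.90 (SE 0.53, edgeR adjusted p = 0.253).

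The other members of miR-17-92 showed no such separation. miR-19b, regarded as the main oncogenic component of the cluster together with miR-19a, had 1774 and 1310 counts in steers against 1823 and 1343 in bulls, with mean levels of 190.3 ± 52.8 and 192.6 ± 68.7 CPM (SD, n = 2). Its LFC was -0.02 (SE 0.48, edgeR adjusted p = 0.99). miR-92a had 41.96 and 36.08 CPM in steers against 47.75 and 34.41 in bulls, with an LFC of -0.07 (SE 0.46, edgeR adjusted p = 0.938). miR-17-3p had 9.88 and 7.94 CPM in steers against 11.1 and 6.43 in bulls, with an LFC of 0.03 (SE 0.52, edgeR adjusted p = 0.985). The groups overlapped for all 3, and the sign of each fold change depended on the scaling.

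miR-25, which is cut from the same MCM7 intron as miR-106b and miR-93, was the one member whose steers values lay above both bulls values. It had 12.96 and 12.73 CPM in steers against 11.77 and 7.40 in bulls. Its LFC was 0.43 (SE 0.52, edgeR adjusted p = 0.619), and it was -0.00054 with total counts, where the groups overlapped.

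**Figure D3:**
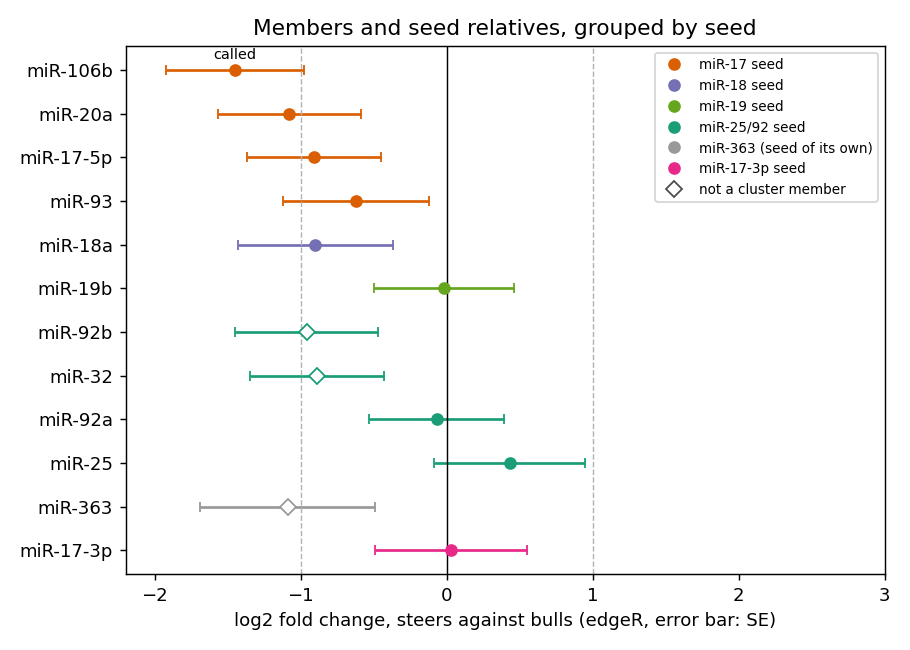
Log2 fold changes (LFCs) of steers against bulls from edgeR, with an SE derived from its test statistic, grouped by seed. Filled circles are the 9 members tested, and open diamonds are relatives outside the clusters. miR-106b, at -1.45, is the only one called, and the relatives miR-92b and miR-32 lie at -0.96 and -0.89 while miR-92a and miR-25 of the same seed lie at -0.07 and 0.43.

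A ratio of 2 miRNAs within a library does not depend on how libraries are scaled, and 10 such ratios were compared. The 2-sided exact permutation test of 2 libraries against 2 cannot give a p below 0.333. In 9 of the 10 ratios both steers libraries lay below both bulls libraries, each at exact p = 0.333 (0.37 after Benjamini-Hochberg adjustment over the 10). The ratios share members, so they are not separate pieces of evidence. No such share was computed for ratios of other miRNA pairs, so the 9 of 10 have no background here. The direction of each ratio depends on which miRNA was placed as divisor, and the members were chosen with earlier results known.

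Within the MCM7 intron, miR-106b relative to miR-25 was 2.55 and 1.71 in steers and 7.81 and 7.83 in bulls. The bulls libraries were almost equal, and the difference of the mean log2 ratios was -1.91. The 95% exact intervals of these ratios were 2.01 to 3.24 and 1.34 to 2.18 in steers and 6.26 to 9.85 and 6.08 to 10.2 in bulls. miR-93 relative to miR-25 was 22.3 and 16.2 in steers and 40.01 and 39.5 in bulls, a log2 difference of -1.06. miR-106b relative to miR-93, which has the same seed, was 0.114 and 0.105 in steers and 0.195 and 0.198 in bulls, a log2 difference of -0.84. The 3 miRNAs of this intron thus stood in different proportions in the steers and bulls libraries.

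Within miR-17-92 the 5′ arm of miR-17 was 4.33 and 4.16 times as abundant as the 3′ arm in steers and 7.81 and 8.65 times in bulls. The log2 difference was -0.95, although both arms are cut from 1 hairpin. miR-17-5p relative to miR-92a was 1.02 and 0.916 in steers and 1.82 and 1.62 in bulls, a log2 difference of -0.83. miR-20a relative to miR-92a was 0.551 and 0.337 in steers and 0.970 and 0.813 in bulls, a log2 difference of -1.04. miR-17-5p relative to miR-20a was 1.85 and 2.72 in steers and 1.87 and 1.99 in bulls. This was the one ratio whose groups overlapped, with a log2 difference of 0.22 (exact permutation p = 1.0).

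Summed over both clusters, the miR-17 seed members relative to miR-25 and miR-92a stood at 7.06 and 5.59 in steers and 11.7 and 10.4 in bulls, a log2 difference of -0.81. Relative to miR-19b they stood at 1.70 and 1.78 in steers and 2.89 and 3.01 in bulls, a log2 difference of -0.76. The miR-106b-25 members relative to the miR-17-92 members were 0.956 and 0.981 in steers and 1.30 in both bulls libraries, a log2 difference of -0.43.

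**Figure D4:**
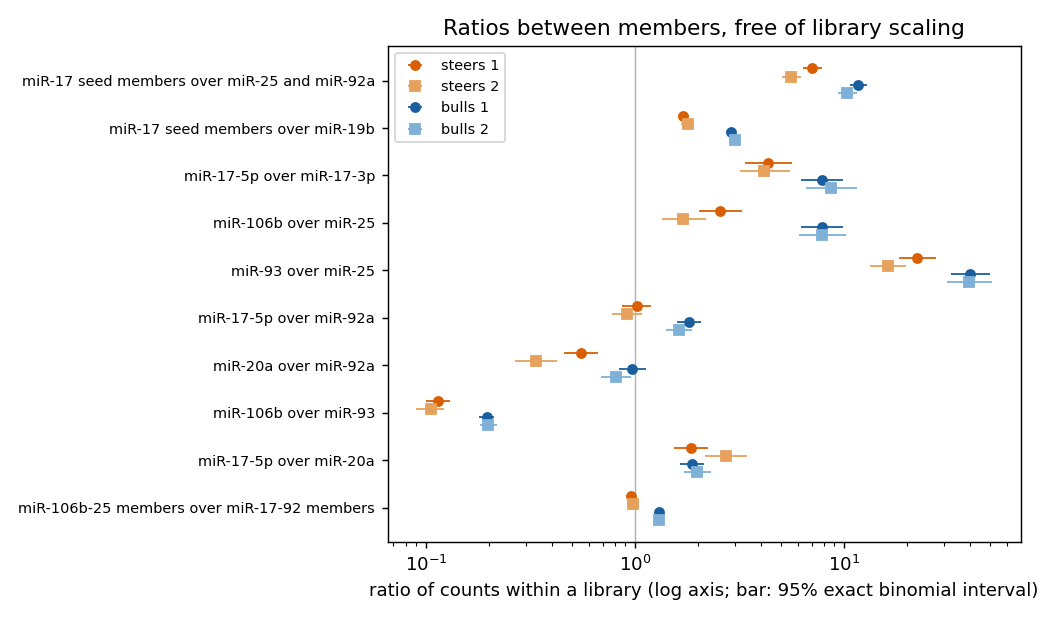
Ratios of counts within each small RNA library (log axis) with 95% exact binomial intervals for counting error, for the 10 ratios compared. In every ratio but miR-17-5p over miR-20a both steers libraries lie to the left of both bulls libraries, with the widest gap for miR-106b over miR-25.

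A few further ratios, chosen after the values were seen and given without a test, placed the remaining members against miR-92a. miR-18a stood at 0.110 and 0.0841 in steers and 0.186 and 0.159 in bulls, without overlap. miR-19b stood at 5.43 and 4.24 in steers and 5.05 and 4.18 in bulls, with overlap. miR-17-3p stood at 0.236 and 0.220 in steers against 0.233 and 0.187 in bulls, also with overlap. miR-25 stood at 0.309 and 0.353 in steers and 0.247 and 0.215 in bulls, without overlap and with steers above bulls.

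The relatives outside the clusters show how far the split follows the seed. Among the 766 known bovine miRNAs with a sequence, 15 carry a seed of a member, and 1 of them, miR-32, is neither a member nor a listed paralog. The relatives with the seed of miR-92a are shown here with the seed in capitals.
miR-92b: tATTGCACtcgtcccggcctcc
miR-32: tATTGCACatgactaagttgcat
miR-92b had 139.7 and 163.4 CPM in steers against 360.1 and 230.5 in bulls, without overlap. Its LFC was -0.96 (SE 0.49, edgeR adjusted p = 0.182). miR-32 had 80.2 and 55.58 CPM in steers against 157.4 and 94.99 in bulls, also without overlap, with an LFC of -0.89 (SE 0.46, edgeR adjusted p = 0.186). Relative to miR-92a in the same library, miR-92b was 3.33 and 4.53 in steers and 7.54 and 6.70 in bulls, and miR-32 was 1.91 and 1.54 against 3.30 and 2.76. Thus 2 miRNAs with the seed of miR-92a had lower ratios to it in steers, as the miR-17 seed members did.

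The paralogs of the miR-106a cluster, a further cluster of this family, were scarce. miR-106a had 8 and 2 counts in steers against 13 and 7 in bulls, and miR-20b had 3 and 1 against 4 and 10. miR-18b had 0 counts in both steers libraries and 2 in each bulls library, all under 3 counts. None of these 3 passed the filter. miR-363, which is annotated here 1 base shifted against the miR-25/92 seed, passed it with 18 and 8 counts in steers against 33 and 24 in bulls. Its LFC was -1.09 (SE 0.60, edgeR adjusted p = 0.219). A further 11 rows are human, mouse or rat homologs named as members, and none had more than 5 counts in a library.

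Over the 4 small RNA libraries, miR-32, miR-30f, miR-30e-5p, miR-100 and miR-15b had the patterns most like the summed miR-17 seed members on the log2 CPM scale. Their Pearson correlations with that sum were 0.999, 0.999, 0.998, 0.998 and 0.998. With 4 libraries such values are common, and 71 of 385 known miRNAs tested outside the lists exceeded 0.95. Only 1 of the 5 remained among the closest 5 with CPM from total counts. miR-30e-5p, the most abundant of them after miR-100, had 1385 and 857.3 CPM in steers against 3161 and 1534 in bulls.

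Some miRNAs that mark other cell types were called in the same libraries, where 7.08% of all sequences were called in each direction. The 6 muscle miRNAs summed to 2208 and 3377 TMM CPM in steers and 5842 and 5394 in bulls, and 2 of 6 were called downregulated, miR-499 and miR-1. Of the 7 immune miRNAs, 2 were called downregulated, among them miR-223 of myeloid cells, with an LFC of -2.91 (SE 0.56, edgeR adjusted p = 1.51e-05). The immune miRNAs summed to 1510 and 1243 CPM in steers and 3833 and 1893 in bulls, while the LFCs of miR-155 and miR-146b were -0.47 and -0.01 and were not called. For the endothelial miR-126, 1 of 2 arms was called downregulated, and the arms summed to 14790 and 7863 CPM in steers and 21300 and 11460 in bulls, with overlap. Among the 3 erythroid miRNAs, miR-451 was called downregulated and miR-486 upregulated, and their sum of 3401 and 7360 CPM in steers against 2248 and 1757 in bulls was nearly all miR-486. The epithelial miRNAs were near 0, with sums of 1.03 and 1.05 CPM in steers and 4.76 and 3.86 in bulls, and miR-141, the only one with enough counts for the test, was called downregulated with an LFC of -2.08 (SE 0.67, edgeR adjusted p = 0.0194). The part of these cell types in the lower miR-106b was not tested, and in bulk tissue fewer cells of a type and less RNA per cell cannot be told apart.

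The mRNA libraries bear on the host gene, the regulators and reported targets of the clusters. Each group had 1 pooled library, with 12677375 counts in steers against 9868415 in bulls, so the fold changes below have no replicate check. They were computed after median-of-ratios scaling, with 95% exact intervals for counting error only. Of the 14540 genes with at least 10 counts, 6.44% were higher in steers by an LFC over 1 and 11.4% were lower by as much. All 5 adipocyte markers were abundant, with 1272 to 9931 counts in steers against 1153 to 7574 in bulls. The muscle markers were present as well, with up to 13852 and 19910 counts for ACTA1, the skeletal muscle actin. Of the adipocyte markers 1, the fatty acid binding protein FABP4, passed the fold downward at -1.06 (-1.12 to -1.01). Of the 5 muscle markers, the fast myosin MYH1 passed it upward at 1.15, with 247 against 102 counts (0.91 with total counts, not past the fold), and the slow myosin MYH7 downward at -2.23 (-2.35 to -2.11). Of the erythroid markers, HBB had 21 counts and 1 count and passed the fold upward at 4.27 (1.63 to 9.64), and ALAS2 had none in either library.

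MCM7, the host of miR-106b-25, was level between the libraries, with 2171 counts in steers against 1953 in bulls and an LFC of 0.03 (-0.06 to 0.12). With total counts it was -0.21, where the median of all genes moved from 0.01 to -0.23. On the RefSeq bovine annotation the precursors of miR-106b, miR-93 and miR-25 all lie inside MCM7. The fold change of the host was thus near 0 where that of miR-106b was -1.45, but the mRNA and small RNA values come from separate libraries and the difference between them was not tested. None of the 6 subunits of the MCM helicase passed the fold, where 6.44% of all genes did upward and 11.4% downward. Their median LFC was -0.04. Next to MCM7, the subunit with the most counts was MCM2, with 395 and 398 counts and an LFC of -0.13 (-0.34 to 0.07). The host gene of miR-17-92, MIR17HG, was not found under that name among the mRNA counts, so no value is given for it.

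Among the regulators, MYC, which activates transcription of both clusters, had 3475 counts in steers against 3618 in bulls, an LFC of -0.18 (-0.25 to -0.11). E2F1, which both activates miR-17-92 and is repressed by it, had 32 and 54 counts, an LFC of -0.88 (-1.56 to -0.22). E2F3 had 25 counts in each library. MYCN and E2F2 were at or under 8 counts in both and fell below the minimum. None of the 4 regulators and hosts with enough counts passed the fold, where 6.44% of all genes did upward and 11.4% downward. With total counts E2F1 passed it, at -1.12, but the share of all genes past the fold was not computed with that scaling.

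Proliferation genes were lower in the steers library. Of the 6 listed, 5 passed the fold downward, where 11.4% of all genes did so. The median LFC over the list was -2.22. MKI67, a nuclear protein of cycling cells, had 138.0 and 656.2 scaled counts, an LFC of -2.25 (-2.52 to -1.99). TOP2A, the topoisomerase of dividing cells, had 28 and 120 counts, at -2.22 (-2.87 to -1.62), and the mitotic cyclin CCNB1 had 20 and 57, at -1.63 (-2.45 to -0.88). CCNA2 had 3 and 15 counts and CDK1 had 1 and 19, with LFCs of -2.44 (-4.87 to -0.62) and -4.37 (-9.75 to -1.72). PCNA, the sliding clamp of DNA polymerase, did not follow them, with 346 and 317 counts and an LFC of 0.0 (-0.22 to 0.23). In the same libraries all 4 T lymphocyte markers and 3 of 4 myeloid markers passed the fold downward, against the same 11.4%. Their summed counts were 74 against 541 and 11656 against 24773. Their part in the values of the proliferation genes was not tested.

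**Figure D5:**
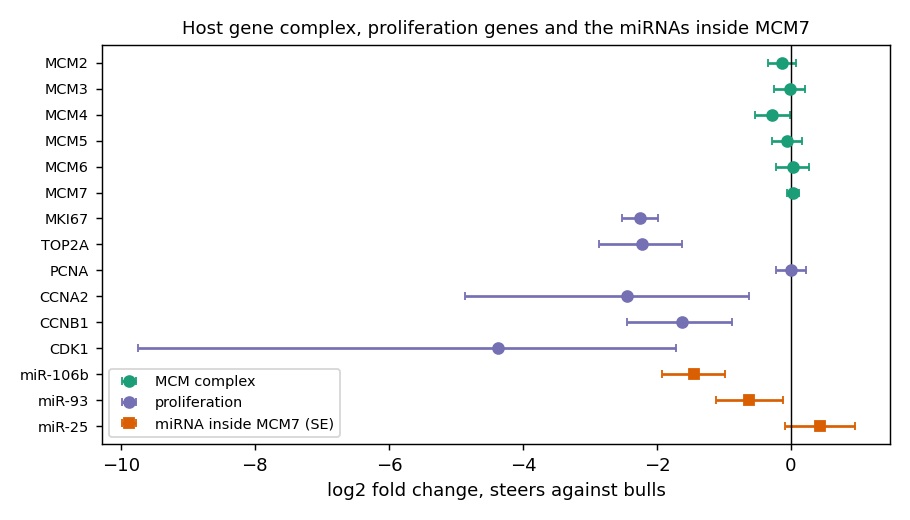
LFCs of steers against bulls for the MCM complex and the proliferation genes (mRNA, 1 pooled library per group, 95% exact intervals for counting error) and for the 3 miRNAs inside MCM7 (small RNA, SE). MCM7 lies at 0.03 and miR-106b at -1.45, and 5 of the 6 proliferation genes lie below -1, as do 11.4% of all genes.

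Of 17 reported targets of the miR-17 seed, 0 passed the fold upward and 1 downward, against 6.44% and 11.4% of all genes, with a median LFC of -0.04 against 0.01 over all genes. The one past the fold was ABCA1, a cholesterol exporter, with 727 counts in steers against 1717 in bulls and an LFC of -1.36 (-1.49 to -1.24). With total counts 2 passed it downward, as E2F1 joined at -1.12, where the median LFC of all genes moved from 0.01 to -0.23. The share of all genes past the fold was not computed with that scaling. The targets with the most counts differed in direction. TXNIP, a regulator of glucose uptake and redox state, had 39099 and 46860 counts and an LFC of -0.38 (-0.40 to -0.36). APP, the amyloid precursor protein, had 16777 and 10981 counts and an LFC of 0.49 (0.45 to 0.52). RBL2, the retinoblastoma relative named above, had 639 and 605 counts and an LFC of -0.04 (-0.21 to 0.12).

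Of the 4 reported targets of the miR-18 and miR-19 seeds, 0 passed the fold upward and 2 downward, against 6.44% and 11.4% of all genes. THBS1, the antiangiogenic matrix protein thrombospondin, had 30164 and 61472 counts, an LFC of -1.15 (-1.17 to -1.13). SOCS1, an inhibitor of cytokine signaling, had 14 and 38 counts, at -1.56 (-2.56 to -0.65). CTGF, a matrix growth factor, had 7778 and 7940 counts, at -0.15 (-0.20 to -0.11). Neither of the reported targets of miR-92a passed it. ITGA5, an integrin subunit, had 4961 and 3372 counts and an LFC of 0.43 (0.37 to 0.50), and KLF2, an endothelial transcription factor, had 711 and 590, at 0.15 (-0.01 to 0.31).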

How the data were processed

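Both tables, as deposited by the authors, hold raw counts without normalization. Per the paper's methods, the authors mapped the mRNA libraries with MapSplice. They matched small RNA reads with BWA against miRBase entries and then the cattle assembly, and predicted or matched further miRNAs to human, mouse and rat. The submitters' processing notes name a human genome build for all samples, and its role is not given in the sources used here. The gene counter is not given either. Libraries were grouped by the castrated or intact label.

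All 1073 sequences that passed filterByExpr were fitted together by group in edgeR 4.0.16 (R 4.3.3, glmQLFit and glmQLFTest, TMM), with Benjamini-Hochberg adjustment over all of them. The biological coefficient of variation shared by all sequences was 0.339. The SE given with edgeR fold changes was derived, as the absolute log2 fold change over the square root of the test's F statistic. EBSeq, the authors' tool, was not used. The fits were tested on simulated data with changed sequences. Alternatives were RLE, total-count and upper quartile scaling, other filters, known bovine miRNAs alone, DESeq2 1.42.0, limma-voom (limma 3.58.1), the replicate block, no fold change threshold and each library left out. Total counts without miR-143 and miR-10b were added after seeing the data. Intervals and permutation tests used scipy 1.17.1. A prior of 2 counts was used for correlations. For mRNA, a gene was past the fold at an absolute log2 fold change over 1 and at least 10 counts over both libraries. Named were all members, paralogs, homologs and the 5 most alike miRNAs, and from each list of host, regulator, MCM, target and proliferation genes those past the fold and the 2 with the most counts. Cell type markers are given by counts with examples, and E2F1, E2F2, E2F3, MYCN and RBL2 were added after their values were seen. The members and lists were chosen with earlier results of these data known. Matching of mRNA targets by sequence was not analysed here.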

Additional observations from a re-analysis of the deposited data

How the results depend on the processing

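miR-17-5p, miR-18a, miR-20a, miR-93 and miR-106b were below 0 in all 15 alternatives, but without bulls library 1 they shrank to -0.36, -0.33, -0.48, -0.05 and -0.89. The setting without a fold change threshold, counted among these 15 and the 11 below, reused the main fit. Its signs and its call of miR-106b were therefore fixed in advance. miR-106b was called in 9 of 11 alternatives that kept all libraries (log2 fold changes -1.91 to -1.27, edgeR, DESeq2 or limma-voom adjusted p 0.00123 to 0.123) and in 1 of 4 that left out a library. Members called downregulated numbered 0 with total counts, 0 without the filter, 2 with the replicate block, where miR-20a joined at -1.10, and 0 to 1 with a library left out. Of all sequences 152 were called, against 1 with total counts, 70 without the filter, 75 among known bovine miRNAs alone, 252 with the replicate block, 85 with total counts without miR-143 and miR-10b, and 26 to 151 with a library left out. Same-numbered libraries had deviations correlated at 0.304, but with 2 pairs and no label for a shared animal the numbers were not taken as pairing.

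Signs changed for members near 0. miR-92a was at 0.005 with RLE, 0.11 with upper quartile, 0.07 with known miRNAs alone and 0.0052 with DESeq2, and at -0.32 to 0.37 with a library left out. miR-19b was at 0.06 with RLE, 0.17 with upper quartile, 0.13 with known miRNAs alone, 0.06 with DESeq2, 0.0021 with limma-voom and 0.002 with the replicate block, and at -0.37 to 0.59 with a library left out. miR-17-3p was at -0.41 with total counts, -0.07 without the filter and -0.04 with total counts without miR-143 and miR-10b, and at -0.35 to 0.66 with a library left out. miR-25 was at -0.00054 with total counts. The ratio of miR-17-5p to miR-20a was 0.22 on the log2 scale and ranged from -0.06 to 0.50 with a library left out, the lowest being without steers library 2. The miR-17 seed targets past the fold downward numbered 2 with total counts, where MCM7 was at -0.21 and the median of all genes at -0.23. The cause of these changes was not tested.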
